A study of Mus musculus with 12 samples.

Results

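WT regulatory T cells (Treg) were compared directly after sorting and after 4 h of stimulation on plates coated with anti-CD3 plus anti-CD28, using 6 of the 12 RNA sequencing libraries of the study. Members were chosen by their labels alone: 3 libraries were WT ex vivo, prepared from sorted cells with no culture, and 3 were WT stimulated, prepared from sorted cells after stimulation with both antibodies at 1 µg/ml each. The mice called WT were not without a transgene. They carried Cre and yellow fluorescent protein (YFP) expressed from the Foxp3 gene on a B6 background, so that Cre was active in Foxp3-expressing cells, and YFP+ cells were sorted from spleen CD4+ cells of individual animals. The other 6 libraries came from Ikzf1 cko mice, 3 ex vivo and 3 stimulated, in which the same Cre met a floxed Ikzf1, which encodes the transcription factor Ikaros. Those enter below through the filter on low values, the mean level used to group genes, the spread shared by the fit and a comparison of the response. No library of cells kept for 4 h without the antibodies was used here, so that stimulation through CD3 and CD28 and the time in culture cannot be told apart: "stimulated" means both together.

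T cells are activated when the T cell receptor (TCR), read here through its CD3 chains, is engaged together with the costimulatory receptor CD28. Calcium-calcineurin-NFAT, Ras-MAPK-AP-1 and PKC-theta-NF-kB signalling then switch on genes in waves. Immediate early genes such as Fos, Jun and the Egr genes need no new protein and are often transient, while genes of surface receptors, cytokines, metabolism and the cell cycle follow. Treg are CD4+ cells defined by the transcription factor Foxp3. They hold other T cells in check, express little IL-2 of their own, and carry high levels of CD25 (Il2ra), CTLA-4 and TNF receptor family members. Cell isolation and sorting themselves are known to induce many immediate early and heat shock genes in lymphocytes.

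Levels are given as scaled TPM, the deposited TPM (a measure corrected for transcript length and library total) divided by a scaling factor per library computed over the tested genes. The 6 WT libraries held 10045424 to 18244906 reads assigned to genes. Spearman correlations across genes were 0.923 to 0.953 among WT ex vivo libraries, 0.919 to 0.930 among WT stimulated libraries and 0.850 to 0.887 between the groups. The first principal component of the WT libraries held 49.7% of the variance and separated the groups, and the second, with 17.9%, set WT ex vivo 2 apart from the other 5. WT ex vivo 3 was from a female by Xist (191 scaled TPM, against 0.742 to 1.48 in the other 5 libraries), and the others expressed the Y-linked Ddx3y. Ikzf1 was at 104 to 114 scaled TPM in WT ex vivo and 66.7 to 71.1 in WT stimulated libraries, above the 33.0 to 42.1 and 23.3 to 30.1 in the Ikzf1 cko ex vivo and stimulated libraries. One gene, Gm10800, took 17.7% to 39.8% of the deposited TPM ex vivo and 32.6% to 44.4% after stimulation (2-sided exact permutation p = 0.3). The median scaled TPM of 1716 olfactory and vomeronasal receptor genes, which T cells are not known to use, was 0.505 to 0.979 ex vivo and 0.729 to 0.912 after stimulation.

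The cells matched their label. The 9 Treg and T cell markers, among them Foxp3, Cd3e and Cd4, summed to 2401 to 2778 scaled TPM ex vivo and 1557 to 1706 after stimulation. The 11 B cell markers summed to 21.3 to 36.1 and 27.8 to 30.2, the 13 myeloid markers to 18.9 to 34.3 and 30.9 to 36.5, and the 9 CD8 T and NK cell markers to 18.3 to 31.0 and 25.7 to 29.7. Erythroid and platelet markers summed to 10.5 to 12.7 and 14.1 to 16.6. No marker of these lists was at 0 reads in all 6 libraries, and only 2 of the B cell list and 1 of each of the other 3 lists passed the filter on low values. Of these, the B cell gene Cd79b was called, from 6.31 ± 1.65 to 3.67 ± 1.62 scaled TPM (-0.68, adjusted p = 0.0406, overlapping groups, called in 10 of the 22 alternatives that tested it). Of 7 dendritic cell markers only Bst2, which T cells also express, passed the filter. In such bulk samples fewer cells of a type and less RNA per cell cannot be told apart.

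Of 13318 genes that reached a mean of 5 TPM in any of the 4 groups, 4262 changed at a limma adjusted p under 0.05: 1688 rose (12.7% of the genes tested) and 2574 fell (19.3%). Changes of more than 2-fold were fewer, with 271 rises (2.03%) and 627 falls (4.71%). Among the 9792 protein-coding genes tested, 119 rose and 395 fell more than 2-fold. The 3 stimulated and 3 ex vivo libraries did not overlap for 4200 of the 4262 called genes, and for 47.5% of all genes tested. The balance of rises and falls depended on the scaling and on the filter, which also sets the genes over which the scaling is computed: rises made up 39.6% of the calls here, 60.5% with TPM as deposited (1175 higher and 768 lower, the median gene then at 0.18), 51.8% after quantile normalization (2062 and 1921), 49.1% with a filter of 20 TPM (1285 and 1334) and 16.5% with a filter of 1 TPM (304 and 1534).

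Falls were more frequent among strongly expressed genes. Protein-coding genes with a mean of 20 to 50 scaled TPM over all libraries had a median log2 change of -0.16, those of 50 to 100 had -0.28, those of 100 to 500 had -0.54 and the 39 above 500 had -0.40. Between 100 and 500, 57.1% of 308 genes fell and 9.74% rose, and above 500, 41.0% fell and none rose. Classes of lower level are not given, since weak genes passed the filter through the group in which they were high. The falls of strongly expressed genes given below stand beside these medians.

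**Figure D1:**
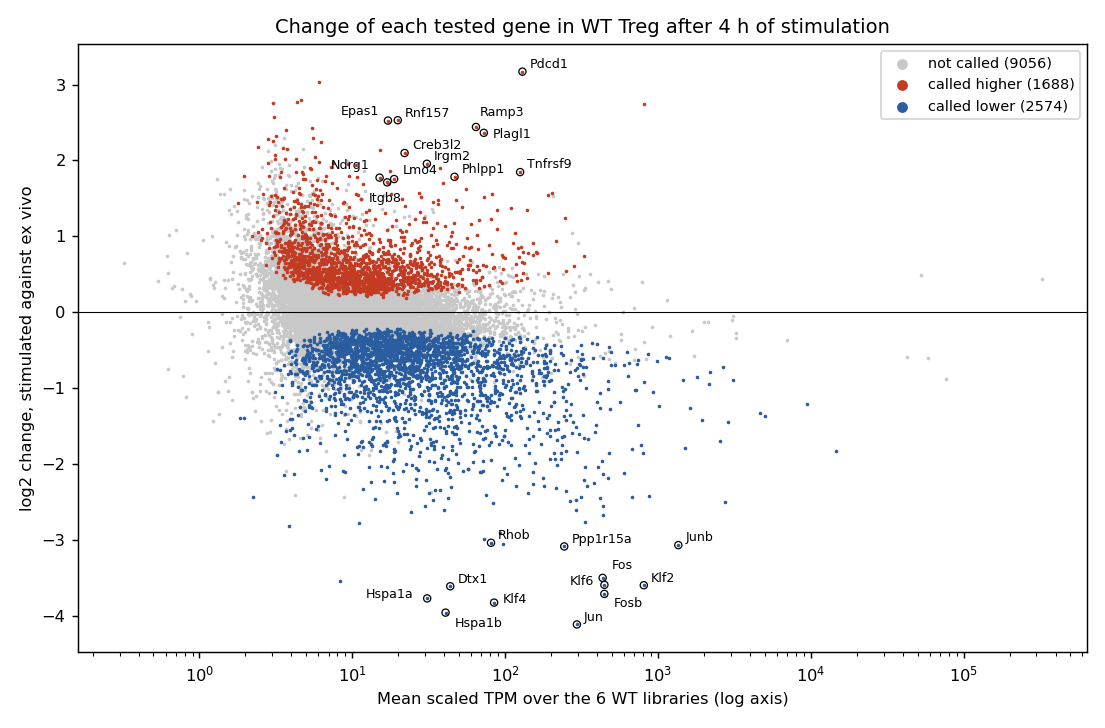
Each dot is one of the 13318 tested genes, with its mean scaled TPM over the 6 WT libraries (log axis) against its log2 change between WT stimulated and WT ex vivo Treg. Circled and named are the 12 largest rises and 12 largest falls among the genes named by rule, from Pdcd1 at 3.17 to Jun at -4.11. The rule required, among other conditions, a group mean of at least 20 TPM.

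The 12 largest falls among the genes named by rule were, in order, those of Jun, Hspa1b, Klf4, Hspa1a, Fosb, Dtx1, Klf2, Klf6, Fos, Ppp1r15a, Junb and Rhob. Jun, a subunit of AP-1 (chr4:94715725-94718913, minus strand, build mm9), was at 441, 481 and 757 scaled TPM in WT ex vivo libraries 1 to 3 and 31.1, 31.1 and 29.1 in WT stimulated libraries 1 to 3. All 3 stimulated libraries lay far below the lowest ex vivo library, at 5.44% of the ex vivo mean (log2 change -4.11, SE 0.22, limma adjusted p = 8.31e-07). Fos, the partner of Jun in AP-1 (chr12:86814840-86818223, plus strand), was at 497, 742 and 1172 ex vivo and 62.2, 68.8 and 66.8 after stimulation (log2 change -3.50, SE 0.29, limma adjusted p = 1.29e-05). The ex vivo libraries differed more for Fos than for Jun, yet the lowest of them was still above every stimulated one. Fosb was at 775, 765 and 949 ex vivo and 56.3, 67.4 and 63 after stimulation, a change of -3.71. Junb, the most abundant AP-1 gene here, was at 2255, 2146 and 2893 ex vivo and 269, 329 and 266 after stimulation, a change of -3.07 with an adjusted p of 9.18e-07. Jund fell too, from 583 ± 110.5 to 84.4 ± 3.3 scaled TPM (SD, n = 3 each).

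Klf2, which keeps T cells quiescent and drives S1pr1, stood at 1375, 1293 and 1815 scaled TPM in WT ex vivo libraries 1 to 3 and 113, 143 and 110.1 in WT stimulated libraries 1 to 3 (log2 change -3.60, SE 0.15, limma adjusted p = 2.07e-07). This was the gene with the third largest loss in scaled TPM. Klf4, another Krüppel-like factor that restrains T cell proliferation, was at 153, 146 and 178 ex vivo and 8.79, 12.7 and 9.58 after stimulation (adjusted p = 1.04e-07), and Klf6 at 737, 740.3 and 998 ex vivo and 59.6, 83 and 60.1 after stimulation. Both groups of libraries were tight for Klf4, and the error of its fall was small (SE 0.13). Dtx1, an E3 ligase linked to Notch signalling and T cell anergy, went from 81.7 ± 9.82 to 5.79 ± 1.01 scaled TPM, and Rhob, a small GTPase, from 145 ± 27.4 to 17.1 ± 5.8 scaled TPM.

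Hspa1b and Hspa1a, the stress-inducible HSP70 genes, were at 28.1, 104 and 103 ex vivo and 2.85, 3.6 and 3.74 after stimulation and at 19.1, 78.6 and 79.3 ex vivo and 3.92, 2.09 and 2.32 after stimulation. WT ex vivo 1 held less of both than the other 2 ex vivo libraries, and the groups still did not overlap. Both genes are near-identical neighbours, so the split of their reads is uncertain, and their 2 changes, -3.96 and -3.77, are not separate results. Ppp1r15a (GADD34), which ends the integrated stress response, was at 443, 361 and 508 ex vivo and 48.5, 56.7 and 45.7 after stimulation (log2 change -3.09, SE 0.17, limma adjusted p = 9.57e-07).

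As differences in scaled TPM, the largest losses among the genes named by rule were those of Actb, cytoskeletal actin (4210.1 ± 659 to 1541 ± 166 scaled TPM), Junb and Klf2, the nuclear RNA Malat1 (2841 ± 344 to 1473 ± 81.9 scaled TPM), the elongation factor gene Eef1a1 (2777 ± 459 to 1602 ± 117 scaled TPM), the NF-kB inhibitor gene Tnfaip3 (1188 ± 80.3 to 355 ± 36.5 scaled TPM), the actin-binding Tmsb4x (1433 ± 308 to 601 ± 10.6 scaled TPM) and Fosb. Scaled TPM are relative to the tested genes of each library and give no amount per cell. For Malat1 and Eef1a1, with changes of -0.94 and -0.78, the direction was not stable: quantile normalization gave 0.01 and 0.09, and with TPM as deposited neither was called.

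**Figure D2:**
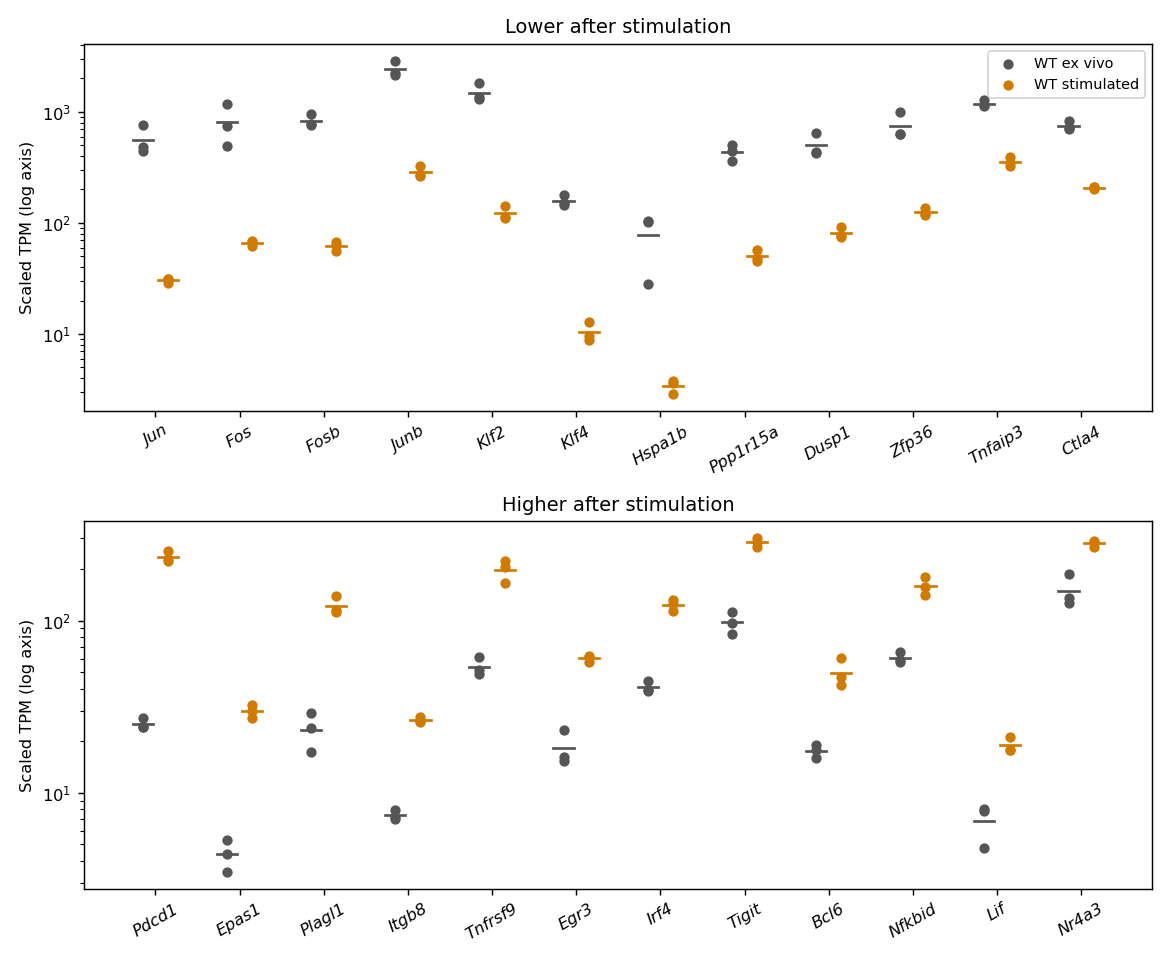
Scaled TPM (log axis) of 12 genes that fell and 12 that rose, with one dot per library (WT ex vivo grey, WT stimulated orange) and a bar at each group mean. The dots of the groups do not overlap for any of the 24 genes. Jun falls from 559 to 30.4 and Pdcd1 rises from 25.1 to 235.

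The immediate early list as a whole split. Of its 25 members, all of which passed the filter, 14 fell and 4 rose, and the median change was -0.58 where the median over all tested genes was 0.00. The 4 that rose were Egr2 and Egr3, zinc finger factors that limit T cell activation, Fosl2, an AP-1 subunit, and the nuclear receptor gene Nr4a3, a target of TCR signalling. Egr3 was at 16, 15.2 and 23.2 ex vivo and 61.8, 57.5 and 61.9 after stimulation (log2 change 1.70, SE 0.17, limma adjusted p = 4.14e-05) and Egr2 at 15.2, 19.6 and 22 ex vivo and 52.6, 51.2 and 58.3 after stimulation (log2 change 1.48, SE 0.15, limma adjusted p = 5.12e-05). Both rose more than 2-fold in the same libraries in which Fos and Jun fell more than 10-fold. Fosl2 went from 76.1 ± 19.8 to 154 ± 9.38 scaled TPM, and Nr4a3 from 149 ± 32.8 to 282 ± 11.5 scaled TPM, with adjusted p of 0.00435 and 0.00375. Egr1, with a mean of 137 ex vivo and 87.3 after stimulation, did not pass the test (log2 change -0.58, SE 0.25, limma adjusted p = 0.0964).

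The Nr4a family moved apart. Nr4a1 (Nur77), a marker of recent TCR signals, was the highest of the 3 in both groups, at 989.6, 857 and 1219 ex vivo and 654, 716 and 704 after stimulation, with a change of -0.55 (adjusted p = 0.0307). This small fall was called in only 13 of 23 alternative fits, was lost on leaving out WT ex vivo 1, WT ex vivo 3 or any stimulated library (-0.57 to -0.41), and had the other sign after quantile normalization. Nr4a2 was at 116, 91 and 84.4 ex vivo and 100.3, 128 and 113 after stimulation and was not called. Of the remaining falls in the list, Maff (-2.31), Atf3 (-1.65), Klf10 (-1.64), Mafk (-1.62), Ier5 (-1.24) and Ier2 (-1.22) were of more than 2-fold, and each was called in all 23 alternative fits.

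Among the genes named by rule, the largest rise was that of Pdcd1, the gene of the inhibitory receptor PD-1 (chr1:95934884-95949130, minus strand, mm9). Pdcd1 was at 24.2, 24.1 and 27.1 scaled TPM in WT ex vivo libraries 1 to 3 and 223, 254 and 227 in WT stimulated libraries 1 to 3. The replicates of each group lay close together, and the stimulated mean was 9.33 times the ex vivo mean (log2 change 3.17, SE 0.12, limma adjusted p = 1.51e-07). It was also the largest gain in scaled TPM among these genes. The next rises were Rnf157, an E3 ubiquitin ligase gene, at 4.96, 6.88 and 3.88 ex vivo and 32.1, 38.1 and 33.2 after stimulation, and Epas1, the gene of the hypoxia-inducible factor HIF-2 alpha, at 5.34, 4.39 and 3.46 ex vivo and 27.3, 32.4 and 29.8 after stimulation, both with a change of 2.53.

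Ramp3, which encodes an accessory protein of the calcitonin-like receptors, was at 28, 14.9 and 16.8 ex vivo and 99.3, 118 and 109.8 after stimulation (2.44), with WT ex vivo 1 highest of its group. Plagl1, a zinc finger factor gene, was at 28.9, 23.7 and 17.2 ex vivo and 112, 139 and 114 after stimulation (log2 change 2.36, SE 0.17, limma adjusted p = 4.85e-06). Creb3l2, a membrane-bound transcription factor of the secretory pathway, rose by 2.10, Phlpp1, a phosphatase of AKT, by 1.78, Ndrg1 by 1.77, the LIM-domain factor Lmo4 by 1.76 and Irgm2, an interferon-gamma-inducible GTPase, by 1.96, all on the log2 scale. Itgb8, the integrin chain with which Treg activate TGF-beta, was at 7.07, 7.88 and 7.21 ex vivo and 26.1, 25.8 and 27.5 after stimulation (log2 change 1.71, SE 0.13, limma adjusted p = 9.07e-06). With Tnfrsf9, described below, these 12 genes did not overlap between groups, as the rule for naming them required, and kept their calls in all 23 alternative fits.

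As differences in scaled TPM, the gains named after Pdcd1 were those of the lectin-like gene Clec2d (103 ± 24.8 to 303 ± 26.1 scaled TPM), AY036118, an annotated pseudogene (150.2 ± 52.2 to 345 ± 29 scaled TPM), Tigit (97.7 ± 14.7 to 285 ± 17.2 scaled TPM), Tnfrsf4 (248 ± 30.3 to 412 ± 31.1 scaled TPM), Tnfrsf9 (53.9 ± 6.36 to 197 ± 27.9 scaled TPM), Nr4a3 and Cblb (79.5 ± 24.1 to 198 ± 12.1 scaled TPM). Cblb encodes an E3 ligase that raises the threshold of T cell activation. AY036118 was highest among the ex vivo libraries in WT ex vivo 1, at 210.05, and lay between 316 and 375 after stimulation.

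Surface receptors of activation moved in both directions. Among 18 coinhibitory receptors and ligands, 15 passed the filter, 7 rose and 4 fell, with a median change of 0.39; this list had the largest share of rises of the 28 lists. Besides Pdcd1, Tigit, an inhibitory receptor that marks highly suppressive Treg, was at 97, 113 and 83.4 ex vivo and 286, 267 and 301 after stimulation (log2 change 1.54, SE 0.14, limma adjusted p = 2.24e-05). Cd200 (1.23), Btla (0.53), Tnfrsf14 (0.40), VISTA (listed as 4632428N05Rik, 0.39, called in 17 of 23 alternatives) and, near the floor, Havcr2 (1.91 to 4.5 scaled TPM, called in 6 of the 22 that tested it) were the others.

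In the opposite direction, Ctla4, the inhibitory receptor on which Treg function depends, was at 829, 708 and 714 ex vivo and 201, 209.8 and 209 after stimulation (log2 change -1.85, SE 0.12, limma adjusted p = 2.9e-06). The stimulated libraries held 27.5% of its ex vivo level and did not overlap with the ex vivo ones. Cd96 (-1.17), Lag3 (-0.84) and Pvr (-0.72) also fell. Cd274, the PD-L1 gene, was at 51.9 and 47.1 scaled TPM and was not called.

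Of 26 costimulatory and activation receptors, 7 rose and 10 fell, with a median of -0.27 that turned to 0.05 after quantile normalization. Of 7 rises, 5 were of the TNF receptor family: Tnfrsf9 (4-1BB) was at 51.4, 49.1 and 61.1 ex vivo and 204, 166 and 221 after stimulation (log2 change 1.85, SE 0.16, limma adjusted p = 1.72e-05), and Tnfrsf18 (GITR) rose by 0.79, Tnfrsf1b by 0.78, Tnfrsf4 (OX40) by 0.73 and Cd27 by 0.64. Slamf1 (0.70) and Cd80 (0.91) were the other 2. Within the same family Tnfrsf8 (CD30) fell by 1.06, and Tnfrsf1a and Tnfrsf25 were not called. Cd69, an early activation marker, was at 288, 352 and 524 ex vivo and 132, 164 and 143 after stimulation and fell (log2 change -1.36, SE 0.20, limma adjusted p = 0.000517). Cd28 itself fell by 1.35 on the log2 scale, Cd44 by 1.11, and the integrin chains of LFA-1, Itgal and Itgb2, by 1.05 and 1.00. Tfrc, the transferrin receptor gene, went from 22.2 ± 1.84 to 13.5 ± 0.996 scaled TPM, and Icos (-0.31, adjusted p = 0.085) did not pass the test.

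Among 33 transcription factors of T cell activation, 30 passed the filter, 9 rose and 10 fell. Irf4, which TCR signalling induces in proportion to its strength, was at 39.5, 39.1 and 44.4 ex vivo and 113, 132 and 124 after stimulation (log2 change 1.56, SE 0.13, limma adjusted p = 1.52e-05). Bcl6, the factor of follicular T cells, was at 18.8, 15.9 and 17.7 ex vivo and 42.3, 60.5 and 46.8 after stimulation (log2 change 1.45, SE 0.18, limma adjusted p = 0.000175), and the STAT genes of the IL-2 and IL-6 pathways, Stat5a (1.02), Stat3 (0.83) and Stat5b (0.72), rose with them. Myc, the driver of growth after activation, went from 59.7 ± 12.4 to 90.3 ± 6.21 scaled TPM (adjusted p = 0.0113), less than 2-fold. The falls were led by Bhlhe40 (457 ± 60.6 to 149.6 ± 17.2 scaled TPM), Id2 (-1.17) and Irf1 (-1.07), and included Ikzf1 (-0.67), Gata3 (-0.69) and Nfatc2 (-0.93). Batf (-0.41) fell slightly, and Nfatc1 (0.11) was not called.

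Genes of the NF-kB pathway moved in both directions. The precursor gene Nfkb1 rose (105 ± 10.7 to 198 ± 18.3 scaled TPM, adjusted p = 0.000536) as did Relb (0.49), whereas Rel (0.27), Rela (-0.09) and Nfkb2 (0.48, adjusted p = 0.0508) did not pass the test. Of 20 inhibitors and targets of NF-kB, 19 passed the filter, 7 rose and 6 fell. Tnfaip3 (A20), the deubiquitinase that shuts the pathway off, was at 1277, 1122 and 1165 ex vivo and 323, 395 and 347 after stimulation (log2 change -1.74, SE 0.15, limma adjusted p = 1.39e-05). Nfkbia, the gene of I-kB alpha, fell from 568 ± 60.04 to 269.97 ± 24.9 scaled TPM, and Birc2 (-1.11), Nfkbiz (-0.61), Nfkbie (-0.63) and Cyld (-0.31, called in 17 of 23 alternatives) fell too. Nfkbid, the nuclear I-kB-NS that is known to promote Foxp3 expression, was at 57.4, 58.6 and 65.3 ex vivo and 141, 179.9 and 157 after stimulation and rose (log2 change 1.38, SE 0.13, limma adjusted p = 2.28e-05). Smaller rises were those of Icam1 (0.47), Traf1 (0.41, called in 17 of 23), Tnip2 (0.40) and Bcl3 (0.37). The median of this list, -0.19, had the other sign after quantile normalization (0.20).

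The promoters of 4 of these genes, Fos and Tnfaip3, which fell, and Nfkbid and Tnfrsf9, which rose, show that the same letters stand before genes of both directions. Each run is 300 bases of the strand of the gene, 5′ to 3′, from RefSeq on build GRCm38.p6, covering 250 bases before and 50 after an annotated start. Capitals mark every match of the 5 motifs searched. For genes with several starts the start with most matches is shown. The motifs were the cyclic AMP response element TGACGTCA, the AP-1 site TGANTCA, the E-box CACGTG, the CArG box of serum response factor and the kappaB site, on both strands.
Fos, chr12:85473640-85473939, plus strand: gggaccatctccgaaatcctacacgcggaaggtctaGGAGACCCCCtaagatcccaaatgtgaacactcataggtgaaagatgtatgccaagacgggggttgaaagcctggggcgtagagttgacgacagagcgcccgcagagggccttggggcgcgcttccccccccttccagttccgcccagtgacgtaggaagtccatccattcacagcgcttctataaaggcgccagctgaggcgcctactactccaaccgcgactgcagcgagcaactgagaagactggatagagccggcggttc
Tnfaip3, chr10:19015361-19015660, minus strand: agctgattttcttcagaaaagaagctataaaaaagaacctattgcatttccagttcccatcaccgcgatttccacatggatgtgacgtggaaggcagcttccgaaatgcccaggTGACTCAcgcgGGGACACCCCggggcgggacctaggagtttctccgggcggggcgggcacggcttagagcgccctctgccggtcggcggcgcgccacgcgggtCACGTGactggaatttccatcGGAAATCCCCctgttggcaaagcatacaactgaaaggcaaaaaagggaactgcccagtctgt
Nfkbid, chr7:30422156-30422455, plus strand: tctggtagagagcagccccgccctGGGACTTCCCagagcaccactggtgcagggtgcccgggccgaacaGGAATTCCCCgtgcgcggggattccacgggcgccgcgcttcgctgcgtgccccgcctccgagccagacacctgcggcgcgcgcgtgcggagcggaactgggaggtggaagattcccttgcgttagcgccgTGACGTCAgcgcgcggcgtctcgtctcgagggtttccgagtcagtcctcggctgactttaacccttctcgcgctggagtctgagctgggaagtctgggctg
Tnfrsf9, chr4:150927749-150928048, plus strand: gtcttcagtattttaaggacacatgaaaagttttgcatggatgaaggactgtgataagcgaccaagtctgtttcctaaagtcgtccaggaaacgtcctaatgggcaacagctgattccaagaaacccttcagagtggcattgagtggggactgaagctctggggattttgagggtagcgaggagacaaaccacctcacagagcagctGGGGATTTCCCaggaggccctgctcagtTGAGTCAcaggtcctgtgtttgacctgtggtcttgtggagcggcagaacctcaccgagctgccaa
All 4 hold a match of the kappaB letters (1 in Fos, 2 in each of the others, overlapping in Tnfrsf9). Tnfaip3 also holds an AP-1 match and an E-box, Nfkbid a cyclic AMP response element and Tnfrsf9 an AP-1 match.

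Over the 9958 promoters of 7911 tested genes that matched by symbol, 10.7% held a kappaB match, against 15.4% of the 136 promoters of genes that rose more than 2-fold and 54 of the 414 of genes that fell more than 2-fold. AP-1 matches stood in 4.88% of all, 4.41% of rising and 7.73% of falling promoters. E-boxes stood in 10.1%, 5.15% and 10.6%, cyclic AMP response elements in 3.20%, 3.68% and 4.11%, and CArG boxes in 1.34%, 2.94% and 1.93%. The counts behind the shares of the rising genes are small, from 4 to 21 promoters, and only 97 of the 271 rising genes had a promoter in the table. A match describes letters in this window and no binding.

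Falls outnumbered rises among feedback inhibitors of signalling. Of 30 inhibitors of MAPK, calcineurin and cytokine signalling, 26 passed the filter, 11 fell and 5 rose. Dusp1, a MAPK phosphatase and itself an immediate early gene, was at 426, 437 and 649.8 ex vivo and 74.7, 92.2 and 75.7 after stimulation (log2 change -2.6, SE 0.19, limma adjusted p = 4.85e-06). Dusp10 (542 ± 153 to 114 ± 10.2 scaled TPM), Dusp5 (371 ± 81.1 to 95.3 ± 3.53 scaled TPM) and Dusp6 (69.5 ± 14.7 to 23.3 ± 0.348 scaled TPM) fell more than 2-fold, as did Socs3 (-1.45), an inhibitor of STAT3. Rising members were Cblb (1.34), Socs5 (1.02), Socs4 (0.65), Rcan3 (0.52) and Ptpn22 (0.45, called in 14 of 23 alternatives).

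Several genes of mRNA decay and RNA binding proteins fell. Of 18 listed, 17 passed the filter, 9 fell and 2 rose. Zfp36 (tristetraprolin), which binds AU-rich elements, was at 632, 636 and 992 ex vivo and 119.9, 137 and 119 after stimulation (log2 change -2.55, SE 0.18, limma adjusted p = 4.85e-06), and Zfp36l2 went from 685 ± 74 to 175 ± 13.7 scaled TPM. Zfp36l1, of the same family, was at 592 and 594 scaled TPM and was not called (0.01, SE 0.13). Zc3h12a (regnase-1), a nuclease of cytokine mRNA, fell by 1.71 and the antiproliferative Tob1, Btg1 and Btg2 by 1.98, 1.48 and 1.43. Arid5a, an RNA-binding protein gene that is known for stabilising cytokine mRNA, was also among the falls (-1.44). Zc3h12d (0.84) and the roquin gene Rc3h2 (0.60) rose.

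Cytokine genes moved in both directions. Of 37 listed, 24 passed the filter, 4 rose and 8 fell, and 13, among them Il4, Il17a, Il21 and Il22, stayed below the filter in every group. Over all tested genes 12.7% rose and 19.3% fell, and the share of rises in the list was near that. The median of the list, -0.13, turned sign with TPM as deposited. Il2, whose locus Foxp3 represses, was at 0.339, 1.06 and 1.61 ex vivo and 2.03, 0.657 and 1.78 after stimulation and was not called (log2 change 0.32, SE 0.46, limma adjusted p = 0.629). It stayed under 5 in WT and passed the filter through an Ikzf1 cko group. Ifng was at 17.6, 25.8 and 24 ex vivo and 4.59, 2.76 and 4.67 after stimulation and fell (log2 change -2.24, SE 0.26, limma adjusted p = 0.000106), as did Lta (54.5 ± 9.86 to 16 ± 0.858 scaled TPM), Areg, a tissue repair factor of Treg (45.8 ± 9.55 to 15.3 ± 0.814 scaled TPM), Fasl (-1.32), Ltb (-1.04) and Ebi3, a subunit of IL-35 (-0.84). Il10 fell by 0.63, a call kept in 9 of 23 alternatives, and lost among others without WT ex vivo 2 (-0.46, adjusted p = 0.126). The rises were Lif (4.79, 7.77 and 8.06 ex vivo and 17.7, 21.1 and 17.6 after stimulation, 1.35), the 4-1BB ligand Tnfsf9 (3.43 ± 1.03 to 10.4 ± 1.79 scaled TPM), the CD30 ligand Tnfsf8 (117 ± 15.3 to 203 ± 31.8 scaled TPM) and Fgl2 (0.68). Tgfb1 (0.26) and Tnf (-0.14) did not pass the test. Of 12 chemokine genes 6 passed the filter, and only Cxcl10 was called (21 ± 1.47 to 8.78 ± 1.84 scaled TPM).

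Among 27 cytokine receptor genes, of which 26 passed the filter, 3 rose and 10 fell. Il1rl1, the receptor of IL-33 found on tissue Treg, was at 3.8, 5.0 and 4.15 ex vivo and 18.1, 14.9 and 18.9 after stimulation (log2 change 1.78, SE 0.15, limma adjusted p = 1.4e-05), the largest change of the list. The receptor chain Il2rb fell from 340.1 ± 20.1 to 176 ± 13.7 scaled TPM, while Il2ra (-0.15) and Il2rg (-0.34) did not pass the test. Il27ra (-1.32), Il6ra (-1.21) and Il4ra (-0.75) were further falls.

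Of 28 Treg identity genes, all of which passed the filter, 8 rose and 12 fell. Foxp3 was at 189, 156 and 158 ex vivo and 107, 88.6 and 123 after stimulation, a fall of 0.66 (adjusted p = 0.0145) that was called in 17 of 23 alternatives and lost without WT ex vivo 1 (-0.58, adjusted p = 0.0571) and without WT stimulated 2 (-0.54, adjusted p = 0.06). A non-coding gene, 4930524L23Rik, overlaps Foxp3 on its strand. Ikzf2 (Helios), at 148, 139 and 130.1 ex vivo and 140.3, 157 and 147 after stimulation, was not called, and Ikzf4 (Eos) rose from 38.4 ± 2.03 to 70.5 ± 1.19 scaled TPM. Lrrc32 (GARP), which presents latent TGF-beta on activated Treg, rose by 0.61. With Tigit, Itgb8, Plagl1, Tnfrsf18 and Tnfrsf4, these make up the rising genes together with Swap70. The falls included, beside Ctla4 and Lag3, Folr4 (283 ± 30.5 to 93 ± 5.38 scaled TPM), Gpr83 (22.7 ± 1.75 to 7.75 ± 0.629 scaled TPM), Cst7 (-1.75), the ectonucleotidase gene Entpd1 (-0.87) and Nrp1 (-0.62). The median of the list, -0.14, had the other sign with TPM as deposited (0.04).

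Genes of quiescent and naive T cells fell more often than they rose: of 34 listed, 33 passed the filter, 17 fell and 3 rose, with a median of -0.38. After Klf2, the largest falls were Tsc22d3 (GILZ, a glucocorticoid target) from 142 ± 13.8 to 24.1 ± 2.88 scaled TPM, Igfbp4 from 58 ± 10.3 to 9.53 ± 1.49 scaled TPM and S1pr1, the receptor for egress from lymph nodes, from 349.7 ± 61.9 to 134 ± 20.4 scaled TPM. Tcf7 (-0.41, called in 13 of 23 alternatives) fell less, and after quantile normalization it was called as higher (0.48). Slfn2 (0.58), Slfn1 (0.56) and Bach2 (0.46, called in 12 of 23) rose.

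Of 26 homing genes, 20 passed the filter, 9 fell and 4 rose. The median of this list, -0.19, turned sign with TPM as deposited and after quantile normalization. P2rx7, Cxcr5, Gpr183 and Itgb7 fell by 1.63, 1.42, 1.37 and 1.36, and Cxcr6 rose (3.19 ± 1.22 to 9.69 ± 0.688 scaled TPM). The TCR complex and its proximal signalling fell broadly: 23 of 31 genes fell and 3 rose, with a median of -0.57. Lat, the adaptor of the TCR, went from 349 ± 42.8 to 154 ± 3.41 scaled TPM, Lck from 236 ± 24.1 to 121 ± 4.23 scaled TPM and Cd3e from 582 ± 69.1 to 405 ± 38.3 scaled TPM, while Zap70 rose (0.43). After quantile normalization 13 fell and 6 rose, the median was -0.10, and Cd3e was called as higher (0.40).

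Genes of growth and protein synthesis did not rise as groups in these libraries. None of 78 cytosolic ribosomal protein genes rose and 57 fell, with a median of -0.64, led by Rpl10 (58.4 ± 6.01 to 13.1 ± 0.846 scaled TPM) and Rps27 (-1.67). Reads of these genes can be shared with their many pseudogenes, which makes single values uncertain. With TPM as deposited 15 fell and the median was -0.45, and after quantile normalization 34 fell and 6 rose, with -0.27. Of 61 ribosome biogenesis genes 60 passed the filter, 19 fell and 1, Nop2 (0.43, called in 16 of 23 alternatives), rose. Npm1 and Ncl, abundant nucleolar proteins, went from 92.5 ± 9.76 to 45.5 ± 2.6 scaled TPM and from 102 ± 10.4 to 61.6 ± 2.18 scaled TPM. The median of this list was -0.17 and reached 0.01 with TPM as deposited.

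Of 31 translation factors, 30 passed the filter, 11 fell and 3 rose. The median of this list, -0.24, turned sign after quantile normalization. Eif1 (353 ± 43 to 86.4 ± 6.02 scaled TPM) and the helicase Eif4a1 (51.2 ± 8.0 to 20.01 ± 0.819 scaled TPM) fell more than 2-fold, and Eif4ebp1 (0.66) and Eif4e (0.37, called in 14 of 23 alternatives) rose. Of 22 aminoacyl tRNA synthetase genes, 3 rose, led by Cars (0.86), and 4 fell, led by Vars (-0.79), shares near those of all tested genes. Of 35 genes of amino acid transport and serine and one-carbon metabolism, 32 passed the filter, 12 fell and only Slc7a1, an arginine transporter, rose (28.8 ± 5.12 to 47 ± 2.27 scaled TPM). Slc3a2, the heavy chain of the CD98 transporter, fell from 149 ± 9.18 to 50.5 ± 5.73 scaled TPM, and Slc7a5, its light chain, was not called (-0.32).

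Stress response genes fell with the immediate early genes. Of 28 genes of the ATF4 and unfolded protein response, 25 passed the filter, 13 fell and 2 rose. Atf4 was at 487, 404 and 493 ex vivo and 123, 130.1 and 128 after stimulation (log2 change -1.85, SE 0.15, limma adjusted p = 1.07e-05). Dnajb9 (163 ± 31.2 to 20.8 ± 2.1 scaled TPM), Ddit3 (CHOP, 43.3 ± 5.17 to 11 ± 1.95 scaled TPM), Herpud1 (-1.61) and the endoplasmic reticulum chaperone Hspa5 (255 ± 24.5 to 100.4 ± 5.23 scaled TPM) fell more than 2-fold, and Ern1 (0.89) and Cebpg (0.61) rose. Of 35 heat shock and folding genes, 34 passed the filter, 21 fell and 2 rose. After the Hspa1 pair, Dnajb1 (158 ± 42.5 to 32.4 ± 1.53 scaled TPM), Dnaja1 (72.6 ± 10.2 to 15.2 ± 1.87 scaled TPM) and Hsph1 (-1.55) fell more than 2-fold, and Hsp90aa1 fell by 1.29. Hspa4l (1.01) and Hsf2 (0.60) rose. The medians of both lists, -0.41 and -0.45, stayed below 0 in all 23 alternative fits.

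Of 28 glycolysis genes, 25 passed the filter, 12 fell and 1 rose. Slc16a3 (MCT4), which exports lactate, went from 5.04 ± 0.566 to 16.7 ± 1.69 scaled TPM (log2 change 1.55, SE 0.12, limma adjusted p = 1e-05). Gapdh (33 ± 1.35 to 10.8 ± 1.17 scaled TPM), Pdk1 (-1.09), Slc2a3 (-1.06) and the glucose transporter gene Slc2a1 (36.5 ± 5.58 to 18 ± 1.4 scaled TPM) fell, and Hk2 (0.31), Ldha (0.25) and Aldoa (0.28) were not called. Of 30 cholesterol genes in the table, 26 passed the filter, 8 fell and 3 rose, with Abcg1, a cholesterol exporter, falling most (59.7 ± 2.67 to 20.1 ± 1.11 scaled TPM). Among 46 nuclear genes of oxidative phosphorylation, 43 passed the filter, 8 fell, a share near that of all tested genes, and none rose. After quantile normalization there were 2 falls and 3 rises, with a median of 0.01.

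Cell cycle genes did not rise as groups at 4 h. Of 25 G1 genes, 20 passed the filter, 6 fell and 2 rose, where 19.3% of all tested genes fell and 12.7% rose. The share of rises was near that of all tested genes. The median of this list, -0.13, turned sign with a filter of 20 TPM and with TPM as deposited. Ccnd2 went from 101 ± 12 to 42.7 ± 6.2 scaled TPM and Ccnd3 from 62.3 ± 8.76 to 28.8 ± 2.32 scaled TPM, while the inhibitor gene Cdkn1c (0.99) and Ccng1 (0.44) rose. Of 26 genes of DNA replication and mitosis, 22 passed the filter, 6 fell and only Mcm6 rose (0.37, called in 14 of 23 alternatives). Pcna, the sliding clamp, was at 91.6, 72.2 and 114 ex vivo and 20.1, 21.6 and 21.6 after stimulation (log2 change -2.06, SE 0.19, limma adjusted p = 2.61e-05), and Mki67, at 27.3, 25.5 and 28 ex vivo and 25, 14.4 and 28 after stimulation, was not called. Among 22 genes of the BCL2 family and death receptors, 20 passed the filter and 9 fell. Bcl2 went from 50.9 ± 5.42 to 18.7 ± 0.128 scaled TPM and Mcl1 from 134 ± 19.5 to 77.8 ± 1.33 scaled TPM, whereas Bcl2l1, the BCL-XL gene, was the only one to rise (19.3 ± 0.716 to 32 ± 3.66 scaled TPM, adjusted p = 0.00105). Bcl2l11 (BIM) was not called (0.04).

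Type I interferon stimulated genes had the lowest median of the 28 lists, -0.74, with 19 falls and 1 rise among the 27 of 31 genes that passed the filter. Irf7, which amplifies interferon production, was at 34.7, 29.1 and 39.2 ex vivo and 12.2, 12.6 and 16.6 after stimulation (log2 change -1.26, SE 0.17, limma adjusted p = 0.000293). Oas3 (11.6 ± 1.07 to 3.89 ± 0.315 scaled TPM), Rtp4 (-1.30), Ddx58 (RIG-I, -1.17) and Zbp1 (-1.13) fell more than 2-fold. The highest group mean of any member was 134 scaled TPM, and the median of the list stayed between -0.98 and -0.48 in all 23 alternative fits. The rise was that of the GTPase gene Gbp2 (36.7 ± 6.16 to 76.1 ± 25.2 scaled TPM), which interferon-gamma also induces. Bst2, the dendritic cell marker named above, is a member of this list and fell by 1.28.

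**Figure D3:**
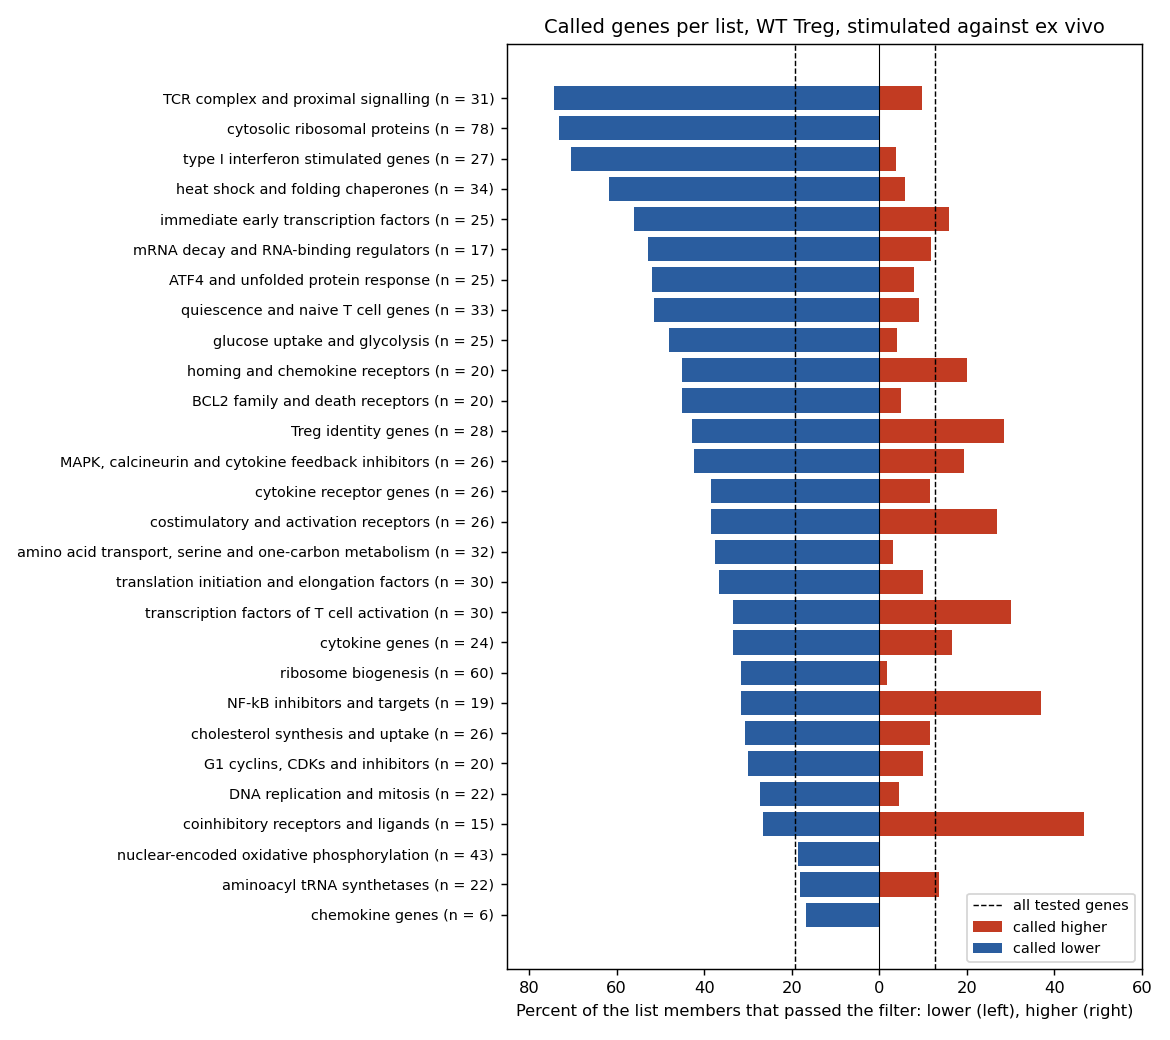
For each of the 28 gene lists, the bars give the percentage of the members that passed the filter (n in brackets) that were called lower (left, blue) or higher (right, red) in WT stimulated against WT ex vivo Treg; dashed lines mark the same shares over all tested genes, 19.3% and 12.7%. The TCR, ribosomal protein and interferon lists have the largest shares of falls and the coinhibitory list the largest share of rises.

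In all, the 28 lists held 776 distinct genes that passed the filter, of which 84 rose and 343 fell. Rises were slightly less frequent than the 12.7% over all tested genes, and falls were more frequent than the 19.3%. The part that the level of the genes has in these shares was not tested.

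Among small RNAs, rises in all 3 classes and falls of small nuclear RNA and microRNA genes were less frequent than the 12.7% and 19.3% over all tested genes. Of 536 small nucleolar RNA genes tested, 118 fell and 16 rose; of 620 small nuclear RNA genes, 30 fell and 24 rose; of 531 microRNA genes, 18 fell and 42 rose. Small RNA genes made up 24.6% to 41.9% of the summed scaled TPM of tested genes ex vivo and 18.2% to 23.4% after stimulation (2-sided exact permutation p = 0.1, the smallest that 3 against 3 libraries can give).

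Protein-coding genes that fell more than 2-fold were shorter in span than the others. Their median genomic span was 12925 bp, against 20534 bp for all protein-coding genes tested and 25819 bp for those that rose more than 2-fold, and 42.5% of them spanned less than 10 kb, against 29.5% and 27.7%. They were also higher in level ex vivo, with a median of 53.7 scaled TPM against 12.7 for all tested and 6.88 for those that rose. The ex vivo level enters the fold that chose them, and its part in the difference in span was not tested.

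The response of Ikzf1 cko Treg to the same stimulation was set beside that of WT. The difference of the responses, tested as an interaction, was called for 147 of the 13318 genes (1.10%), 101 of which were also called in WT. One library of this comparison stood apart: Ikzf1 cko stimulated 3 had the fewest reads (8208659) and Spearman correlations of 0.848 and 0.854 with its own group, and without it 114 genes were called. Leaving out each other library in turn gave 56 (without Ikzf1 cko stimulated 1) to 208 (without Ikzf1 cko stimulated 2). With all 12 libraries the count was 0 with a replicate block, with a filter of 1 TPM and with no filter, where 1548, 2405 and 2687 genes had an unadjusted limma p under 0.05, and 376 to 395 with a filter of 20 TPM, quantile normalization or limma-voom. All 35 named genes had the same sign in both genotypes. They were named for large changes in WT, whose values the interaction also uses, and this favours a larger response in WT. For Jun the fall was larger in WT, -4.11 against -2.23 in Ikzf1 cko, and for Plagl1 and Lmo4 the rise was larger in WT, 2.36 against 1.18 and 1.76 against 0.73. The limma adjusted p of the interaction was 0.0172 for Jun, 0.0467 for Plagl1 and 0.0468 for Lmo4, and these calls were kept in 15, 8 and 6 of 22 alternatives. For Pdcd1 the responses, 3.17 and 2.46, were not told apart by this test (difference 0.71, SE 0.17, adjusted p = 0.0828).

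Among the listed genes, Bcl2 changed by -1.39 in WT and -0.06 in Ikzf1 cko (interaction adjusted p = 0.0122), Gpr83 by -1.44 and 0.41 (0.0122) and Usp18, an interferon-induced protease, by -0.75 and 0.99 (0.0132). Bcl6 changed by 1.45 and -0.20 (0.0163). The response of Gbp2 was larger in Ikzf1 cko (2.99 against 0.98, 0.0137). Nfkbia changed by -1.07 and -2.05 (0.0494). Of the 28 lists, the 5 interactions among interferon stimulated genes were the most in any list.

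**Figure D4:**
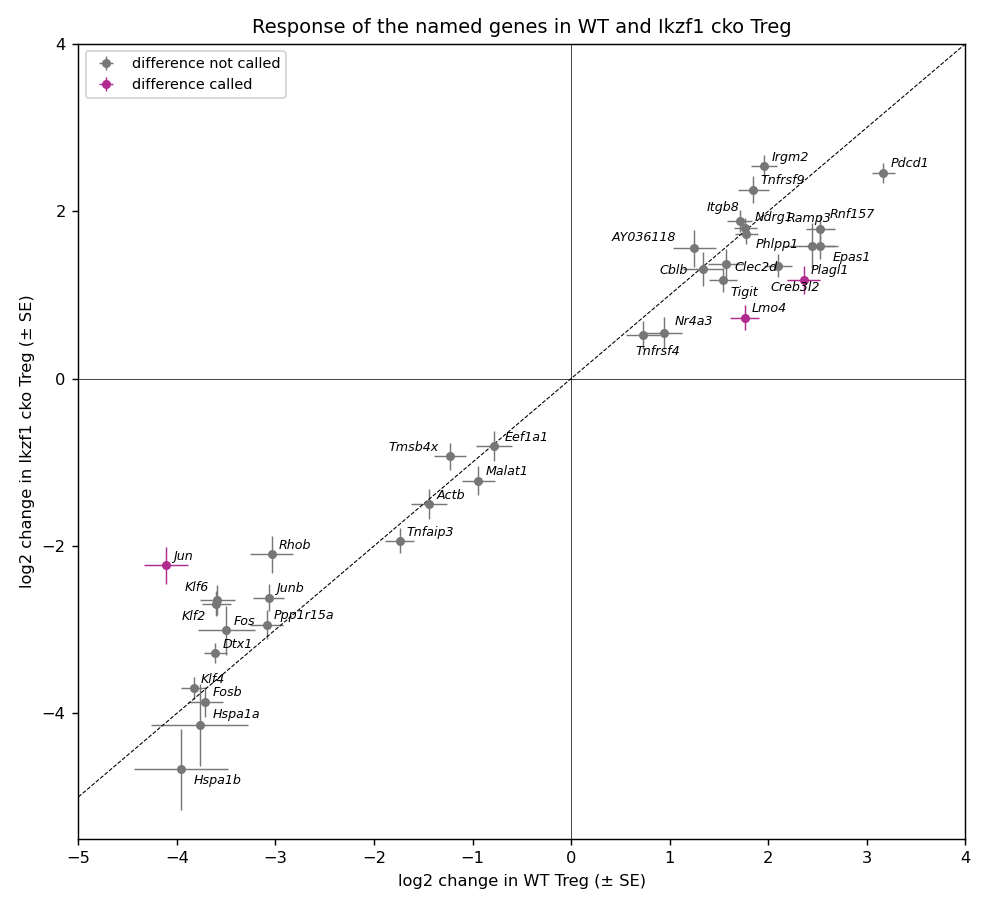
log2 change between stimulated and ex vivo Treg in WT (horizontal, ± SE) and in Ikzf1 cko (vertical, ± SE) for the 35 named genes, with equality as a dashed line. Genes whose difference was called (Jun, Plagl1 and Lmo4) are purple, and all others grey; every gene lies in the lower left or upper right quadrant.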

How the data were processed

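Treg from individual mice were profiled by total RNA sequencing. Per the submitters' processing notes and the methods of the study, ribosomal RNA was depleted, strand-specific libraries were sequenced as paired ends, reads were aligned to mm9 with STAR 2.6.0c and counted per gene on the strand with HTSeq 0.6.1. The values deposited by the authors are a TPM signal for each gene in each library and its log2, which contains an offset worth 1 read. Dividing the TPM by this offset recovered the reads (whole within 0.01 reads for 99.9977% of values). A second deposited table, with the authors' own fold changes and p-values, was not used.

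Genes that reached a mean of 5 TPM in any group were kept. TPM were divided by a factor per library (trimmed mean of M-values, 30% and 5% trimmed), 1 was added and log2 taken, so that fold changes of low genes are understated. All 12 libraries were fitted at once with limma 3.58.1 (R 4.3.3), with the 4 groups as the only term and a mean-variance trend. P-values are 2-sided, adjusted by Benjamini-Hochberg over all tested genes, and called under 0.05. Cells came from individual mice, but whether ex vivo and stimulated libraries shared a mouse is not given in the sources used here, and p-values measure the spread between these samples. By sex, WT ex vivo 3 (Xist at 191 scaled TPM) shared no mouse with the WT stimulated libraries (0.748 to 0.866). Named genes were the 12 largest rises and falls in log2 and the 8 largest gains and losses in level among called genes with no overlap between libraries and a group mean of at least 20 TPM, without predicted genes, small RNAs and receptor segments; members of the gene lists are described by list, and some are not reported here. Positions came from GENCODE vM1 and promoters from RefSeq. The comparison and the lists were chosen with earlier results of these data known. Alternatives were other filters, scalings, pseudocounts, limma-voom on recovered reads, WT libraries only, a replicate block and leaving out each library.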

Additional observations from a re-analysis of the deposited data

Results flagged for a closer look

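Of the 35 named genes 3 changed differently in the 2 genotypes by the interaction test, which called 1.1% of all tested genes. The 35 were named for large changes in WT, and the interaction uses the same WT values. This choice favours a larger response in WT, so the 3 calls are no independent result about the named genes. The log2 response of Jun in WT minus that in Ikzf1 cko Treg was -1.89 (SE 0.30, limma adjusted p = 0.0172): Jun was at 441, 481 and 757 ex vivo and 31.1, 31.1 and 29.1 after stimulation in WT and at 185, 194 and 309.9 scaled TPM ex vivo and 47.8, 48.0 and 44.9 after stimulation in Ikzf1 cko. All 3 WT libraries were above the Ikzf1 cko libraries ex vivo and below them after stimulation. The difference was called in 15 of 22 alternative fits, with values from -2.12 to -1.36.

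For Plagl1 the difference was 1.19 (adjusted p = 0.0467, called in 8 of 22 alternatives). The Ikzf1 cko libraries started higher, at 61.9, 59.8 and 54.5 scaled TPM ex vivo, and reached 129, 156 and 119.8. For Lmo4 it was 1.03 (adjusted p = 0.0468, called in 6 of 22), with 9.09, 9.0 and 7.37 ex vivo and 12.6, 16.2 and 15.4 after stimulation in Ikzf1 cko. Groups of 3 libraries were not tested for outlying samples.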

How the results depend on the processing

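The counts moved with the scaling, the filter on low values, the model and the replicate block. Changed genes in WT (4262, with 1688 higher and 2574 lower) were 1838 (304 and 1534) with a filter of 1 TPM, 1694 (303 and 1391) with no filter, 2619 (1334 lower) with a filter of 20 TPM and 1943 (768 lower) with TPM as deposited. Both looser filters test more genes. Responses that differed between genotypes (147) were 0 with a filter of 1 TPM and 0 with none (limma, 2405 and 2687 at an unadjusted p under 0.05), 376 with a filter of 20 TPM, 67 with TPM as deposited, 392 after quantile normalization and 395 with limma-voom. Same-numbered WT libraries did not deviate together (r = -0.067, 0.001 and 0.041 across genes, and 0.057, -0.208 and -0.062 in Ikzf1 cko). Such correlations cannot exclude that same-numbered libraries shared a mouse. WT ex vivo 3 and WT stimulated 3 differed in sex by Xist (191 and 0.866 scaled TPM). With a replicate block, 3165 genes were changed, 1118 higher, and 0 responses differed (1548 at an unadjusted p under 0.05). Leaving out 1 library gave 3234 to 4399 changed genes, 1197 to 1718 higher, 2037 to 2681 lower and 56 to 208 differing responses.

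Of 805 values of the 35 named genes under 23 alternatives, 791 kept direction and call, 12 lost the call and 2 turned sign, Malat1 (0.01) and Eef1a1 (0.09) under quantile normalization. List medians turned sign under a filter of 20 TPM (NF-kB 0.03, Treg identity 0.11, ribosome biogenesis 0.04, tRNA synthetases 0.11, G1 0.01), with TPM as deposited (cytokines 0.06, Treg identity 0.04, homing 0.01, ribosome biogenesis 0.01, tRNA synthetases 0.10, G1 0.05) and after quantile normalization (NF-kB 0.20, costimulatory 0.05, homing 0.24, translation 0.10, tRNA synthetases 0.08, oxidative phosphorylation 0.01). The cause was not tested. Of 427 called list genes, 195 kept the call with TPM as deposited, 316 after quantile normalization, where 5 were called with the other sign, 225 and 221 with the looser filters, and 358 to 425 on leaving out 1 library.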
